A study of Mus musculus with 5 samples.

Results

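The genes described here are the subunits of the AMPA and NMDA types of ionotropic glutamate receptor, 9 of the 31053 genes in the count tables: Gria1, Gria2, Gria3, Gria4, Grin1, Grin2a, Grin2b, Grin2d and Grin3a. They were chosen by name as a gene family, not by any measured value, and all 9 were matched by symbol. They were followed through nuclei of the mouse paraventricular hypothalamic nucleus (PVH), the region that holds oxytocin and vasopressin neurons, in 5 single-nucleus RNA libraries of male mice on a C57BL6 background.

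The libraries belong to 2 experiments. The first used OT-Cre; Rosa26tm9(CAG-tdTomato)Hze mice (Ai9), in which Cre made from the oxytocin gene's regulatory sequence switches on a red reporter, at 5 weeks of age. Their dams received sodium valproate (VPA, an antiepileptic drug and histone deacetylase inhibitor) at 500 mg/kg, or saline at 10 mL/kg, on gestation day 12.5, and each arm gave 1 library. It asks how expression in the PVH differs after prenatal VPA exposure. The second used OT-Cre; Rosa26dreaddm3 mice (stop-hM3), in which Cre allows expression of hM3, a designer receptor activated by clozapine N-oxide (CNO), at 5 to 7 weeks of age. All of these mice were exposed to VPA before birth, so the second experiment has no unexposed control. They received CNO (2 libraries, called CNO library 1 and CNO library 2 after their replicate numbers) or saline (1 library, called the hM3 control) at postnatal day 2, to ask whether neonatal stimulation of oxytocin neurons changes later expression. They also received an AAV into the PVH and the supraoptic nucleus, whose cargo the labels do not give. Nuclei of 2 to 4 mice were pooled per condition and sorted with a preference for larger nuclei, so the shares of cell classes are not those of the tissue. Genotype, virus, age and preparation separate the experiments and cannot be told apart, and contrasts of treatments stay within an experiment.

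AMPA receptors are tetramers of GluA1 to GluA4, encoded by Gria1 to Gria4, and carry most fast excitatory current. GluA2, once its RNA is edited, keeps calcium out of the channel. NMDA receptors need GluN1 (Grin1), joined by GluN2 subunits that set their kinetics and magnesium block (Grin2a for faster, Grin2b and Grin2d for slower channels) or by GluN3 subunits (Grin3a), which lower calcium flow. In the PVH, glutamatergic input through these receptors drives the magnocellular and parvocellular neurosecretory neurons. Oligodendrocyte precursors and astrocytes also carry AMPA receptors.

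In the GRCm38.p6 RefSeq annotation, Gria1 lies at chr11:57011571-57330244, Gria2 at chr3:80681450-80804227, Gria3 at chrX:41400819-41678601 and Gria4 at chr9:4417893-4796234. Grin1 lies at chr2:25291177-25319187, Grin2a at chr16:9567901-9996083, Grin2b at chr6:135713221-136173615, Grin2d at chr7:45831883-45871194 and Grin3a at chr4:49661611-49846023. The annotated spans run from 28.0 kb for Grin1 and 39.3 kb for Grin2d to 460.4 kb for Grin2b. Long genes give more nuclear reads where introns are counted, so levels are not ranked between genes here. Where a ratio or share of subunits is given, it is compared with the same ratio or share in other nuclei.

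Of 32292 deposited nuclei, 29537 were used, with a median of 3722.5 to 11913 UMIs (distinct RNA molecules counted) per deposited nucleus across libraries and 52506944 to 76243279 UMIs per library. CNO library 2 was the shallowest library and VPA the next. Clusters made without the receptor genes and their partners gave neuron-like, astrocyte-like, oligodendrocyte-like, oligodendrocyte precursor-like (OPC-like), committed OPC-like and microglia-like nuclei. Neurons were split by the ratio of Gad1, Gad2 and Slc32a1 to Slc17a6 and Slc17a7, the vesicular glutamate transporter genes, into 24 GABA-type sub-clusters (a ratio of at least 8) and 24 called Slc17a6-rich (at most 2). The other 13 of 61 sub-clusters entered neither group. Of these, 8 that carried glial markers, were led by interferon genes or came mostly from 1 library were set aside, and 5 with both transmitters or an unclear one stayed among neuron-like nuclei. They held 192 of 3834 nuclei in saline, 297 of 7573 in VPA, 651 of 3207 in the hM3 control, 645 of 2759 in CNO library 1 and 1518 of 2884 in CNO library 2. Among the Slc17a6-rich sub-clusters are the OT-like one (275 nuclei, led by Oxt) and thalamus-type clusters led by genes such as Tcf7l2 and Synpo2. The rest were split by their Sim1 level into a Sim1-rich group and a remainder group. The figures label these other Sim1-rich and other Slc17a6-rich. UMIs were summed per library and class, and levels are UMIs per 1000000 of that sum (CPM). Changes between classes were tested over the 5 libraries with edgeR's quasi-likelihood test and library as a block, with p-values adjusted by Benjamini-Hochberg over all genes and called at an adjusted p of 0.05. Because each library pools animals, these p-values measure the spread between pooled libraries.

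AMPA subunits differed between astrocytes, OPCs and oligodendrocytes. Gria1, which encodes GluA1, was highest in astrocyte-like nuclei. Its level there was 2964 CPM in the saline library, 2683 in VPA, 2627 in the hM3 control, 2140 in CNO library 1 and 1605 in CNO library 2, against 668.8 to 1048 CPM in neuron-like nuclei of the same libraries. Each astrocyte value lay above every neuron value. The level was 2.47-fold higher in astrocyte-like than in neuron-like nuclei (log2 1.30, edgeR adjusted p = 1.85e-05, higher in 5 of 5 libraries). In OPC-like nuclei Gria1 was instead at 183.1 to 233.4 CPM, 4.53-fold lower than in neurons (edgeR adjusted p = 5.83e-08).

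Gria2, which encodes the calcium-limiting subunit, was shared by neurons, astrocytes and OPCs. In astrocyte-like nuclei it averaged 1001 ± 141.3 CPM (SD, n = 5) and in neuron-like nuclei 1185 ± 113.6, a difference that did not pass the test (log2 -0.30, edgeR adjusted p = 0.0837). In OPC-like nuclei it averaged 1341 ± 139.0 CPM, also without a called difference (log2 0.24, edgeR adjusted p = 0.232). The class with the highest mean was the committed OPC-like one, cells on the way to becoming oligodendrocytes that carry Bmp4, Enpp6 and Gpr17, where Gria2 stood at 1646, 2493, 2102, 2181 and 1666 CPM in the order saline, VPA, hM3 control, then CNO libraries 1 and 2. All 5 lay above the highest OPC-like library, at 1569 CPM. This class holds 12 to 70 nuclei a library and entered no test. In oligodendrocyte-like nuclei Gria2 fell to 143.0 ± 45.27 CPM, 7.97-fold below neurons (edgeR adjusted p = 1.29e-15).

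Gria3 and Gria4 were shared by neurons and OPCs and were low in astrocytes. Gria4 averaged 1472 ± 92.25 CPM in neuron-like and 1506 ± 116.2 CPM in OPC-like nuclei (log2 0.08, edgeR adjusted p = 0.712), but 86.42 ± 27.37 CPM in astrocyte-like nuclei, 18.1-fold below neurons (edgeR adjusted p = 3.40e-18). Gria3 averaged 656.1 ± 18.44 CPM in OPC-like nuclei against 473.1 ± 66.94 CPM in neurons, higher in 5 of 5 libraries without passing the test (log2 0.56, edgeR adjusted p = 0.117). Gria4 was the subunit least reduced in oligodendrocyte-like nuclei. Its level there was 491.1, 553.0, 415.2, 524.0 and 536.3 CPM in the library order above, a narrow band that did not overlap the neuron values and was 2.75-fold below them (edgeR adjusted p = 5.73e-09). The other 8 subunits were 7.97-fold to 29.6-fold lower in oligodendrocyte-like nuclei than in neurons.

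The NMDA subunits were all lower in astrocytes than in neurons, and all but Grin3a were lower in OPCs. Grin1, the obligatory subunit, averaged 283.9 ± 21.59 CPM in neuron-like nuclei, 49.62 ± 7.783 in OPC-like and 16.24 ± 1.552 in astrocyte-like nuclei, 5.51-fold and 18.3-fold below neurons (edgeR adjusted p = 2.20e-15 and 1.75e-22). Grin2a was at 4.995 to 18.69 CPM in both of those glial classes against 413.4 to 507.6 CPM in neurons. Grin2b parted the 2 glial classes: it averaged 283.0 ± 35.17 CPM in astrocyte-like nuclei, 3.91-fold below neurons, and 53.49 ± 46.14 CPM in OPC-like nuclei, 23.1-fold below (edgeR adjusted p = 4.59e-10 and 1.02e-14). Grin2d was 2.00-fold lower in OPC-like nuclei, at 15.59 to 25.57 CPM (edgeR adjusted p = 3.84e-04).

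Grin3a, which encodes the GluN3A subunit of young synapses, was highest among the cell classes in OPC-like nuclei. It stood at 806.3, 736.8, 642.7, 780.8 and 657.6 CPM in the order saline, VPA, hM3 control, then CNO libraries 1 and 2, against 227.1 to 280.4 CPM in neurons. The ranges were far apart in every library, and the level was 2.98-fold higher than in neurons (log2 1.58, edgeR adjusted p = 8.70e-11). It averaged 223.5 ± 123.9 CPM in committed OPC-like nuclei and 17.18 ± 5.508 CPM in oligodendrocyte-like nuclei.

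**Figure D1:**
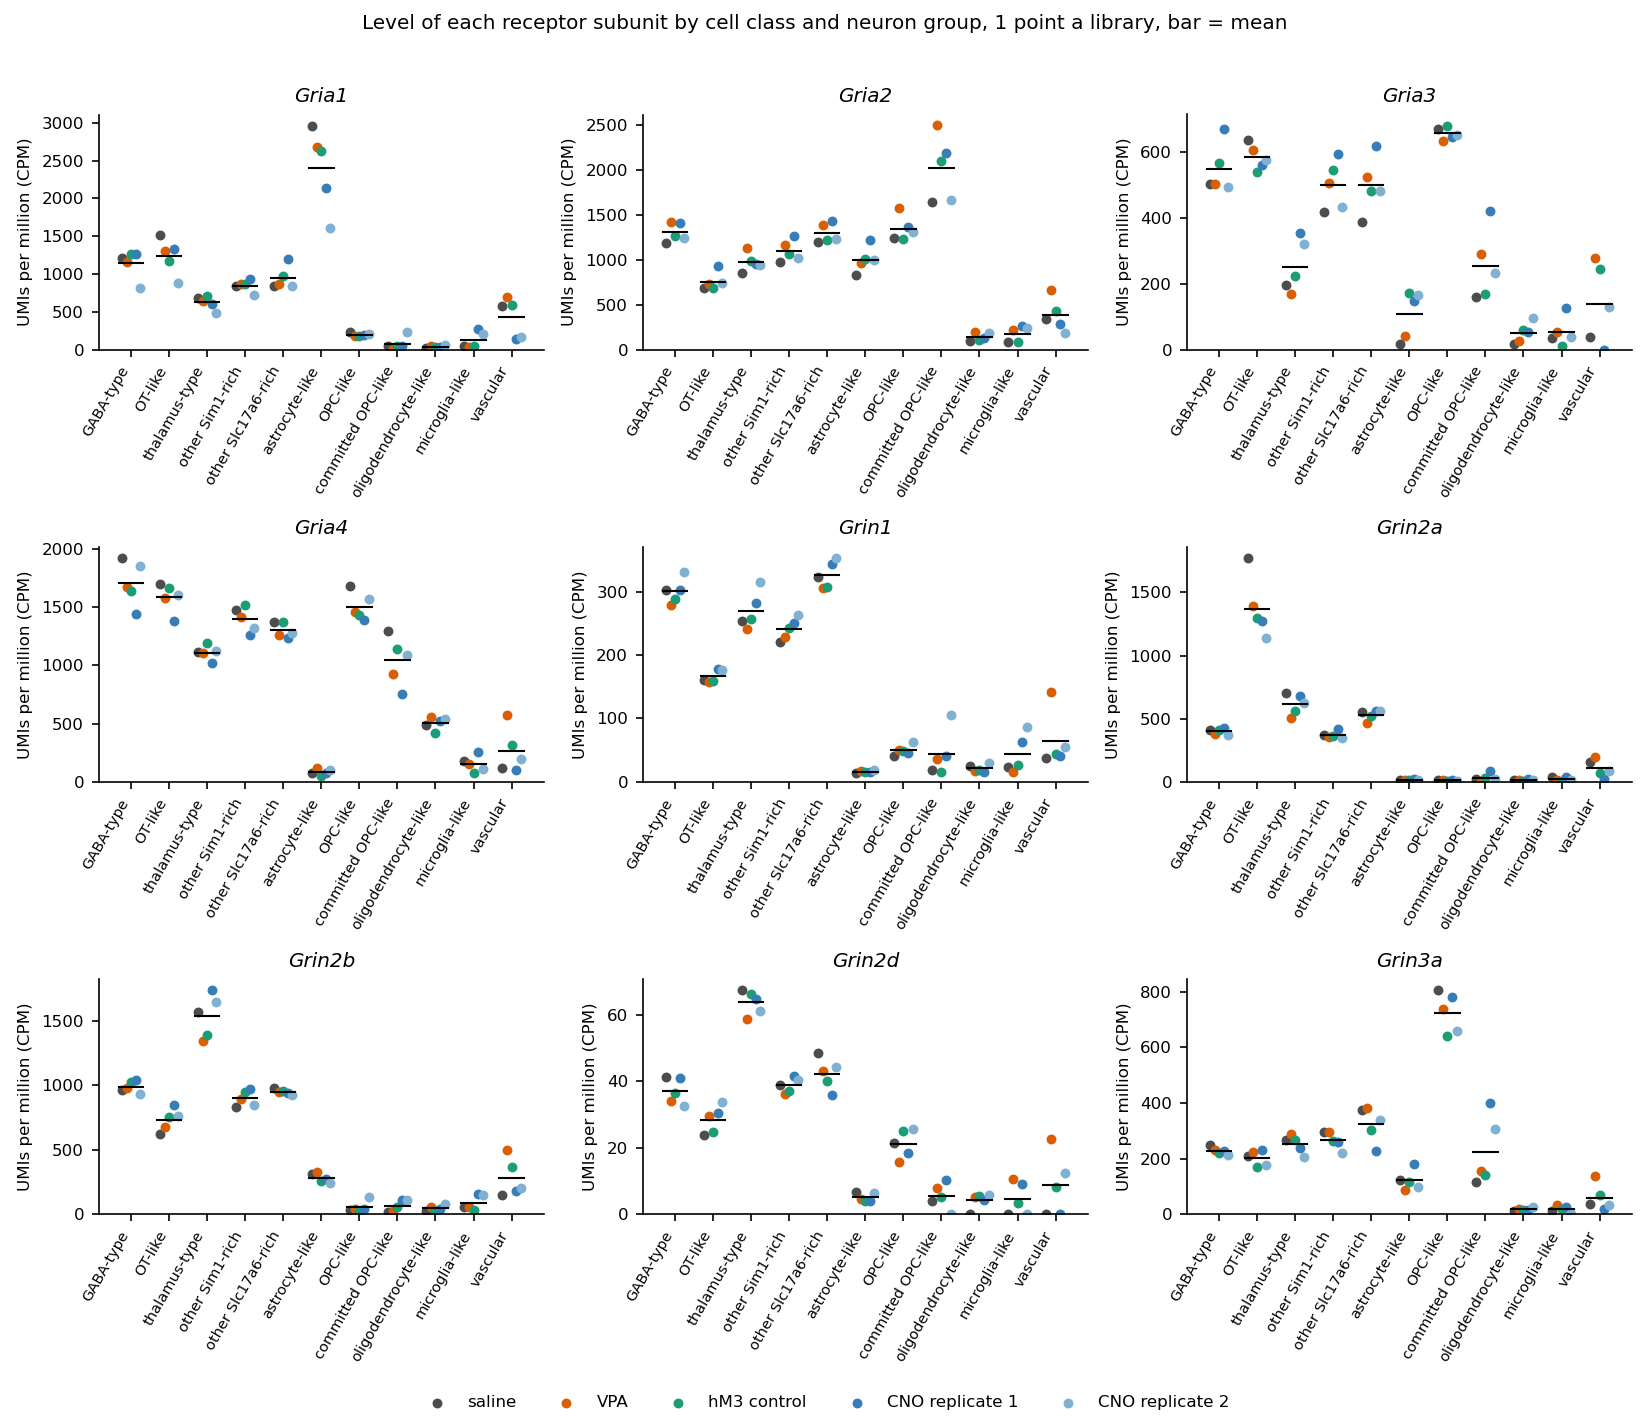
Level of each subunit (vertical axis, CPM from 0) by cell class and neuron group, 1 point a library and a bar for the mean of 5 libraries. Gria1 peaks in astrocyte-like nuclei (1605 to 2964 CPM), Grin3a in OPC-like nuclei (642.7 to 806.3 CPM), Gria2 in committed OPC-like nuclei and Grin2a in OT-like neurons (1136 to 1773 CPM).

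Counted over the family, 1 subunit rose and 7 fell in astrocyte-like against neuron-like nuclei, where 36.5% of the 12359 genes tested were called higher and 35.6% lower. In OPC-like nuclei 1 rose and 5 fell (22.8% and 24.0% of all genes). All 9 were lower in oligodendrocyte-like nuclei (36.0% of all genes lower, 34.5% higher) and all 9 in microglia-like nuclei (34.4% lower, 24.4% higher). The members' median log2 difference was -2.37 in astrocytes, -0.999 in OPCs, -3.71 in oligodendrocytes and -3.84 in microglia, against 0.02, -0.02, 0.01 and -0.21 over all genes tested. Plain library totals as the scale moved the median of all genes in microglia by 0.50 and the split there from 3016 higher and 4254 lower to 4550 and 3029, and all 9 subunits were called lower on both scales.

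Neuronal RNA free in the suspension can give glial droplets neuronal UMIs, and its amount was not measured here. For 8 neuron markers the median level, relative to neuron-like nuclei, was 7.03% in astrocyte-like, 8.92% in OPC-like, 6.97% in oligodendrocyte-like and 11.9% in microglia-like nuclei, though Nefl, a neurofilament gene, reached 212%, 81.4%, 47.5% and 126% in the same order, and Snap25, a synaptic gene, 38.3% in OPCs. Gria1 (251%), Gria2 (86.1%), Grin3a (44.3%) and Grin2b (24.5%) in astrocytes stood above the median marker, as did Grin3a (288%), Gria3 (135%), Gria2 (118%), Gria4 (105%), Grin2d (45.9%), Gria1 (18.7%) and Grin1 (17.7%) in OPCs and Gria4 in oligodendrocytes (36.7%). Of these, Gria2, Grin3a and Grin2b in astrocytes, Grin2d, Gria1 and Grin1 in OPCs and Gria4 in oligodendrocytes were below Nefl in the same class. Gria2 (9.95%), Gria3 (9.62%) and Grin2d (12.3%) in oligodendrocytes exceeded the median marker but not Nefl. Grin1, Grin2a and Gria4 in astrocytes (5.74%, 3.45% and 5.52%) and Grin2a and Grin2b in OPCs (2.28% and 3.57%) were at or below the marker level, and no expression is read from those values. In astrocytes Grin2d was at 11.7%, on few UMIs, and Gria3 at 25.9%, with 4.16% to 40.1% between libraries. The 9 members in microglia-like nuclei, at 2.53% to 16.9%, lay on both sides of the marker median.

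**Figure D2:**
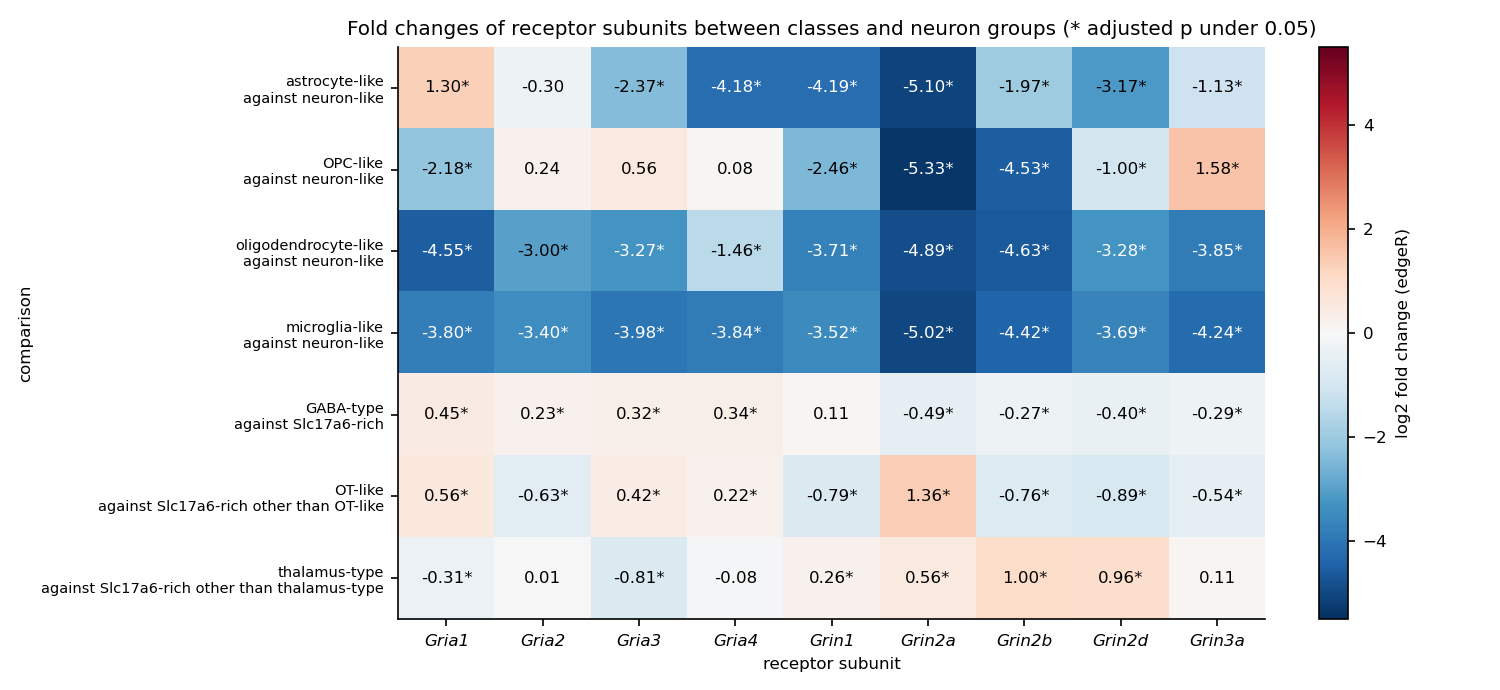
Log2 fold changes (colour, edgeR) of the 9 subunits (columns) in 7 comparisons (lines of the grid), with a star where the adjusted p is under 0.05. Gria1 is higher in astrocytes (1.30) and lower in OPCs (-2.18), Grin3a is higher in OPCs (1.58), and Grin2a is higher in OT-like neurons (1.36).

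The composition of each family, as a share of its own UMIs, separated the glia in the same way. In astrocyte-like nuclei Gria1 held 66.1 ± 8.19% of AMPA subunit UMIs (SD, n = 5), against 23.0 ± 2.64% in neurons. In OPC-like nuclei Gria4 held 40.7 ± 2.45% and Gria2 36.2 ± 3.22%, while Gria1 held 5.38 ± 0.476%. Gria2 took 59.1 ± 6.90% in committed OPC-like nuclei and Gria4 took 69.1 ± 6.41% in oligodendrocyte-like nuclei. Among NMDA subunits Grin3a held 84.3 ± 5.80% of OPC-like UMIs and 61.5 ± 4.37% of committed OPC-like UMIs, against 11.9 ± 1.39% in neurons. These shares are not corrected for gene length and are not receptor stoichiometry, but the share of 1 gene can be set beside its own share in another class.

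**Figure D3:**
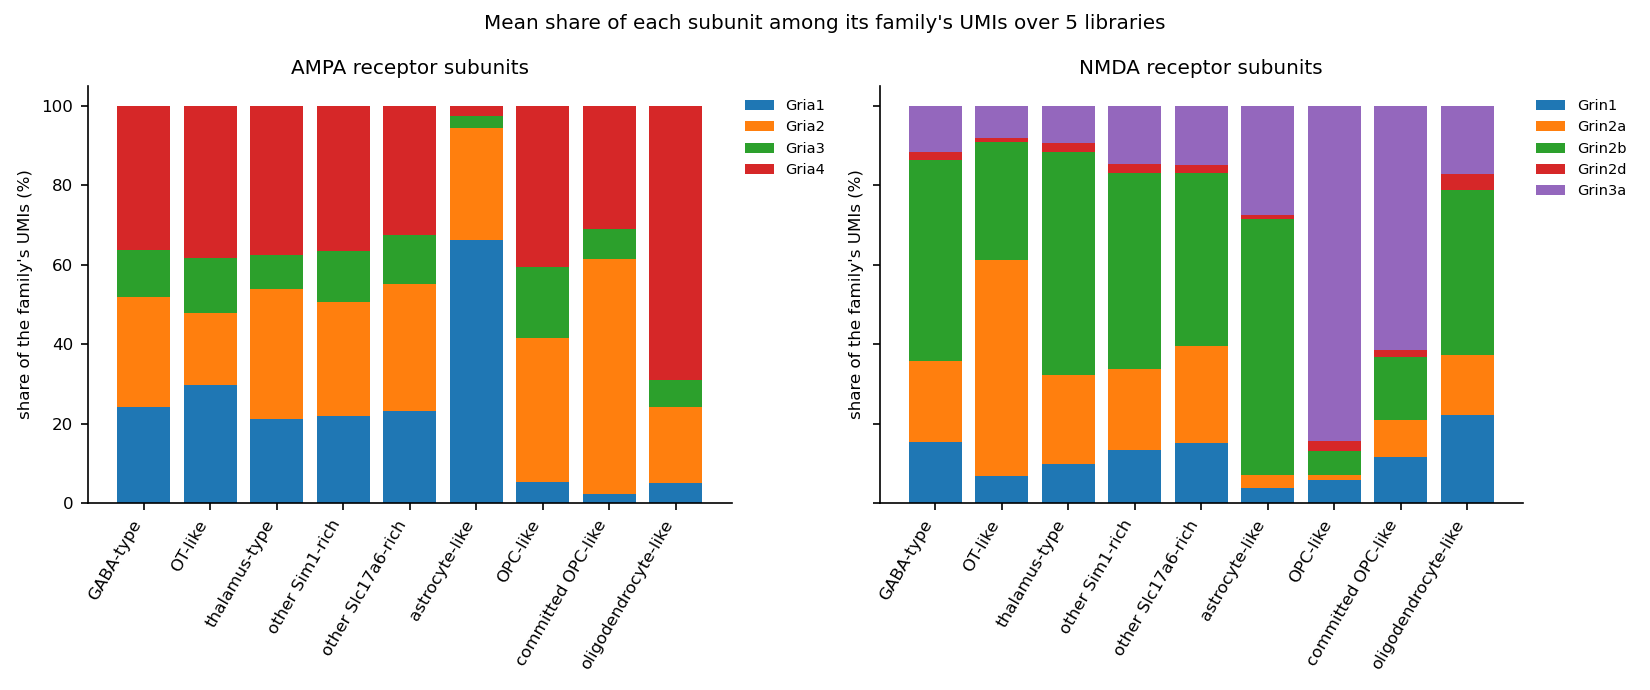
Mean share over 5 libraries of each subunit among AMPA (Gria) UMIs and among NMDA (Grin) UMIs, in percent (vertical axis), by class and neuron group. Gria1 fills 66.1% of the astrocyte AMPA bar, Grin3a fills 84.3% of the OPC NMDA bar, and Grin2a fills 54.6% of the OT-like NMDA bar.

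Of 20 AMPA auxiliary and biogenesis genes 19 were tested, with 1 higher and 16 lower in astrocytes, 3 higher and 7 lower in OPCs, 1 higher and 15 lower in oligodendrocytes and 17 lower in microglia. The shares over all genes in these 4 comparisons are those given above, and in OPCs the 3 higher genes of 19 are below the 22.8% of all genes. Cacng4, which encodes the TARP gamma-4 auxiliary subunit, averaged 672.4 ± 140.2 CPM in OPC-like nuclei and 66.69 ± 10.27 CPM in neurons, 10.5-fold higher (edgeR adjusted p = 2.80e-20). The other 2 genes that were higher, named after their values were seen, were the TARP gamma-7 gene Cacng7 (1.60-fold, edgeR adjusted p = 2.12e-05) and Shisa6 (2.14-fold, edgeR adjusted p = 4.09e-06). Cacng2, which encodes stargazin, was 19.1-fold lower there, the scaffold gene Grip2 15.5-fold and Syndig1 4.17-fold lower. Cacng3, the TARP gamma-3 gene, and the cornichon gene Cnih3 had 1 UMI each in OPC-like nuclei of all 5 libraries together, against 67.27 ± 5.98 and 16.10 ± 3.52 CPM in neurons, and were called lower.

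The NMDA subunit Grin2c lies outside the family described. It averaged 85.44 ± 11.61 CPM in astrocyte-like nuclei and 3.576 ± 2.693 CPM in neurons, 27.8-fold higher (edgeR adjusted p = 7.39e-14). Of 9 NMDA co-agonist and modulator genes 3 were higher and 4 lower in astrocytes, near the shares over all genes (36.5% and 35.6%). In the same comparison the RNA editing gene Adarb2 was 27.5-fold, Cacng3 26.9-fold, Grip2 24.4-fold, Shisa7 15.0-fold and Neto1 14.1-fold lower than in neurons. The anchoring list, of which 8 of 10 genes were tested, had 5 lower in astrocytes, 4 in OPCs, 7 in microglia and 5 in oligodendrocytes, with 1 higher in the last, where 35.6%, 24.0%, 34.4% and 36.0% of all genes were lower.

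Among neurons, GABA-type clusters held more of every AMPA subunit and less of 4 NMDA subunits than the pooled Slc17a6-rich clusters, by small amounts. This did not hold for each group in that pool. OT-like neurons had a higher mean than GABA-type ones for Gria1 (1241 against 1143 CPM) and Gria3 (582.8 against 546.7 CPM), with overlapping ranges. Gria1 was at 1218, 1158, 1259, 1259 and 821.3 CPM in GABA-type and 806.0, 838.2, 858.0, 875.8 and 624.4 CPM in Slc17a6-rich nuclei of the 5 libraries. CNO library 2 was the lowest library in both, and within each library the GABA-type value was the higher one. The difference was 1.36-fold for Gria1, 1.17-fold for Gria2 and 1.27-fold for Gria4, and log2 0.32 for Gria3 (edgeR adjusted p = 7.66e-05, 0.00154, 0.00233 and 0.00127), each in 5 of 5 libraries.

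Grin2a was 1.40-fold, Grin2d 1.32-fold, Grin3a 1.22-fold and Grin2b 1.20-fold lower in GABA-type nuclei (edgeR adjusted p = 4.04e-04, 6.09e-04, 0.00172 and 0.0225), again in 5 of 5 libraries. For Grin2b only the thalamus-type mean (1537 CPM) lay above the GABA-type one (988.5 CPM). The remainder, Sim1-rich and OT-like groups lay below it (946.9, 898.1 and 732.2 CPM). The Sim1-rich group was below GABA-type nuclei in Grin2a (370.0 against 399.1 CPM). OT-like nuclei were below them in Grin2d (28.45 against 36.98 CPM) and Grin3a (201.1 against 227.7 CPM). Grin1 did not pass the test (log2 0.11, edgeR adjusted p = 0.0997). The 4 higher and 4 lower members stand beside 12.0% higher and 13.2% lower of 16829 genes tested. Without the library block 2 of the 8 calls were left, Grin2a and Grin2d, and the Grin2b call was lost when the saline, CNO library 1 or CNO library 2 library was left out (edgeR adjusted p = 0.0784, 0.0802 and 0.0623). Scaled by plain library totals, Grin1 was called higher as well (edgeR adjusted p = 0.0111) and the split over all genes was 3447 higher and 1835 lower, against 2012 and 2229.

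Of the 19 tested genes of the AMPA auxiliary list 3 were higher and 6 lower in GABA-type nuclei, where 12.0% of all genes were higher and 13.2% lower. Among the partner genes the largest differences were lower ones. Cacng3 was at 46.20 ± 3.98 CPM in GABA-type and 85.22 ± 9.706 CPM in Slc17a6-rich nuclei, 1.93-fold lower. The synaptic organizer gene Syndig1 was 1.87-fold, Shisa6 1.88-fold, Wwc1 1.64-fold and Adarb1, which encodes the enzyme that edits the GluA2 pore, 1.79-fold lower. Nptx2, a pentraxin gene, was 4.81-fold lower but stood at only 1.153 CPM in GABA-type nuclei. Cacng3, Adarb1 and Nptx2 were also higher in thalamus-type nuclei, described below, which are part of the Slc17a6-rich pool.

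The OT-like sub-cluster had the highest mean Grin2a and the lowest mean Gria2, Grin1 and Grin2b of the neuron groups. The cluster was picked for Oxt, at 833.5 CPM in its pooled nuclei, with Sim1 at 593.3 CPM, and Avp was at 20.19 CPM. A second sub-cluster had Oxt among its leading genes, with Foxp2, Esr2 and Reln (536 nuclei, Oxt at 193.1 CPM). It was counted in the Sim1-rich group, so the OT-like values are not those of all oxytocin neurons. The OT-like cluster held 59, 104, 58, 17 and 37 nuclei in the order saline, VPA, hM3 control, then CNO libraries 1 and 2. Each library value below thus rests on few nuclei, most of all in CNO library 1.

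Grin2a stood at 1773, 1390, 1294, 1270 and 1136 CPM in OT-like nuclei, in that library order. Every OT-like value was above the highest thalamus-type value (704.2 CPM) and the highest GABA-type value (429.3 CPM). Against the other Slc17a6-rich nuclei it was 2.57-fold higher (log2 1.36, edgeR adjusted p = 1.16e-08). Grin2b was at 623.6, 672.6, 756.4, 846.5 and 762.0 CPM in OT-like nuclei, 1.69-fold lower than in the other Slc17a6-rich nuclei (edgeR adjusted p = 4.94e-07). That pool includes thalamus-type nuclei, where Grin2b averaged 1537 CPM. The Sim1-rich group was nearer, at 898.1 ± 61.39 CPM against 732.2 ± 86.42 CPM in OT-like nuclei, and its range (834.0 to 973.1 CPM) overlapped theirs. The log2 ratio of Grin2a to Grin2b, read within a library, was 1.51, 1.05, 0.78, 0.59 and 0.58 in OT-like nuclei, above every GABA-type and thalamus-type value. In GABA-type nuclei it ran from -1.37 to -1.24 and in thalamus-type nuclei from -1.41 to -1.16. The second sub-cluster with Oxt among its leading genes had a mean ratio of -1.13 (SD 0.37), against 0.90 (SD 0.39) in OT-like nuclei. Grin2a thus held 54.6 ± 5.70% of NMDA subunit UMIs in OT-like nuclei against 20.4 ± 0.608% in GABA-type nuclei, and Grin2b held 29.5 ± 4.71% against 50.6 ± 1.16%.

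The other NMDA subunits were lower in OT-like nuclei. Grin1 was at 158.0 to 177.7 CPM, below all 5 values of each other neuron group, and 1.73-fold below the other Slc17a6-rich nuclei (edgeR adjusted p = 4.38e-07). Grin2d was 1.85-fold and Grin3a 1.45-fold lower (edgeR adjusted p = 2.85e-05 and 1.22e-04). Thalamus-type nuclei, with mean Grin2d at 63.72 CPM, are in that pool, and the Sim1-rich group was at 38.82 CPM against 28.45 CPM in OT-like nuclei.

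On the AMPA side Gria2 stood at 683.6, 732.8, 686.4, 926.0 and 736.3 CPM in OT-like nuclei, against 981.4 to 1201 CPM in the other Slc17a6-rich nuclei. CNO library 1, with 17 nuclei, was the highest, and no OT-like value reached that range. Gria2 was 1.54-fold lower than in the other Slc17a6-rich nuclei (edgeR adjusted p = 3.31e-06), while Gria1 was 1.48-fold, Gria3 1.34-fold and Gria4 1.17-fold higher (edgeR adjusted p = 3.39e-05, 0.00284 and 0.0253). Gria2 held 18.2 ± 2.67% of AMPA subunit UMIs in OT-like nuclei, and 27.8 ± 2.16% in GABA-type and 32.8 ± 2.61% in thalamus-type nuclei.

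In all, 4 members were higher and 5 lower in OT-like nuclei, where 12.6% of 13981 genes were higher and 14.4% lower. By plain library totals the same counts of members were called, and the split over all genes moved from 1759 higher and 2012 lower to 2304 and 1706. The Gria4 call was lost when any 1 library other than CNO library 1 was left out, in the order above (edgeR adjusted p = 0.0859, 0.0877, 0.0933 and 0.125), without the filter on low counts (0.354), without the library block (0.196) and with predicted doublets kept (0.0505).

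Of the 19 tested genes of the AMPA auxiliary list 4 were higher and 7 lower in OT-like nuclei, and all 3 editing genes were lower. Over all genes 12.6% were higher and 14.4% lower. Adarb1 averaged 64.59 ± 16.13 CPM and was 3.38-fold lower than in the other Slc17a6-rich nuclei, and Adarb2, an editing gene without known catalytic activity, was 7.72-fold lower (edgeR adjusted p = 6.10e-08 and 6.42e-08). Those other nuclei include the thalamus-type ones, which were high in Adarb1, as described below. Gsg1l, an AMPA auxiliary subunit gene, averaged 85.98 ± 22.66 CPM and was 3.25-fold higher (edgeR adjusted p = 9.41e-09). Cacng5 was 4.13-fold lower, at 2.316 ± 1.448 CPM. The pentraxin genes Nptx1 and Nptx2 were called lower on 5 UMIs and 1 UMI in OT-like nuclei of all 5 libraries. Editing of the Gria2 transcript itself cannot be read from counts.

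Thalamus-type neurons were set apart by GluN2 subunits. Grin2b stood at 1568, 1339, 1390, 1737 and 1648 CPM, in the library order above, against 932.9 to 1042 CPM in GABA-type and 623.6 to 846.5 CPM in OT-like nuclei, with no overlap. It was 2.00-fold higher than in the other Slc17a6-rich nuclei (edgeR adjusted p = 5.15e-06), with Grin2d 1.94-fold and Grin2a 1.47-fold higher (edgeR adjusted p = 1.33e-06 and 1.34e-04). Gria3 was at 196.6, 169.3, 222.2, 352.9 and 318.8 CPM, higher in the CNO libraries than in the other 3, and all below the 419.0 to 606.0 CPM of the other Slc17a6-rich nuclei. A thalamus-type sub-cluster led by Lef1 and Prkcd, with Gria3 at 328.4 to 658.5 CPM in 4 libraries, made up 78 of 325 and 135 of 417 thalamus-type nuclei in CNO libraries 1 and 2, but 26 of 536 in saline, 1 of 525 in VPA and 12 of 247 in the hM3 control. Over all thalamus-type nuclei Gria3 was 1.76-fold lower (edgeR adjusted p = 7.34e-04).

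In this comparison 4 members were called higher and 2 lower, beside 21.0% higher and 23.2% lower of 15089 genes tested. The scale mattered here: plain library totals moved the median of all genes by -0.24 on the log2 scale and the split of calls from 3165 higher and 3497 lower to 1794 and 7551. Grin1, 1.19-fold higher by edgeR's composition factors (adjusted p = 0.00256), was not called by plain totals (log2 0.02, adjusted p = 0.730), on which it was higher in 3 of 5 libraries. Gria2, without a difference by the first (log2 0.01, adjusted p = 0.924), was lower by the second (log2 -0.22, adjusted p = 0.0173), and Gria4 was lower by the second as well (log2 -0.32, adjusted p = 4.59e-04). The calls of Grin2b, Grin2a, Grin2d, Gria3 and Gria1 held on both scales, although Gria1 (1.24-fold lower) lost its call without CNO library 2 (edgeR adjusted p = 0.0531) or without the library block (0.116). Grin3a passed on neither scale (edgeR adjusted p = 0.181 and 0.0887).

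Of the 19 tested genes of the AMPA auxiliary list 11 were higher and 5 lower in thalamus-type nuclei, where 21.0% of all genes were higher and 23.2% lower. These counts and the folds below are by edgeR's factors, and plain library totals moved the median of all genes down. Adarb1 averaged 394.2 ± 110.4 CPM and was 4.40-fold higher, Cacng3 was 2.64-fold and the synaptic adhesion gene Lrrtm2 2.54-fold higher, Nptx2 3.53-fold higher and Nptx1 5.74-fold lower. Grin2c was 15.8-fold higher, at 11.41 ± 10.90 CPM, with a range of 1.425 to 25.70 CPM between libraries.

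Neuron clusters differed from each other more in some subunits than in others. Across 48 neuron sub-clusters (24 GABA-type and 24 Slc17a6-rich), the highest over the lowest mean was 87.4-fold for Grin2a (26.22 to 2291 CPM), 26.9-fold for Grin3a and 13.8-fold for Gria3. It was 11.2-fold for Grin2d and 7.52-fold for Gria1, and no more than 4.45-fold for Grin2b, 3.77-fold for Gria4, 3.38-fold for Grin1 and 2.76-fold for Gria2. The SD between sub-clusters on the log2 scale was 1.11 for Grin2a and 0.31 for Gria2, and the median SD between libraries within a sub-cluster was 0.23 and 0.13. The sub-clusters described next were picked after their values were seen and carry no test.

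The highest Grin2a and Grin2b came from a sub-cluster of 65 nuclei with Slc17a7 at 87.92, Slc17a6 at 11.92 and the GABA genes at 122.2 CPM (2291 and 2322 CPM, over the 2 libraries with at least 10 such nuclei), and OT-like nuclei were next for Grin2a. A GABA-type sub-cluster led by Greb1, Moxd1, Lhx6 and Prlr had the highest Gria1, at 2556, 2243, 2183, 2200 and 1706 CPM in the 5 libraries, each above the range of GABA-type nuclei as a whole. A GABA-type sub-cluster led by Piezo2 and Meis2 had the highest Gria4 (2322 ± 174.7 CPM). A small Prdm16-led GABA-type sub-cluster of 46 nuclei had the highest Gria3 (1832 ± 25.54 CPM, n = 2 libraries).

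The Avp-rich sub-cluster, 263 nuclei led by Avp, the vasopressin gene, contrasted with the OT-like one. It had the lowest Gria2 (586.1 ± 92.95 CPM) and the lowest Gria4 (616.2 ± 63.57 CPM) of all 48, and the highest Grin3a, at 795.7, 874.6, 708.7, 764.4 and 509.3 CPM. OT-like nuclei held Grin3a at 167.7 to 229.2 CPM, with no overlap. Grin2a went the other way: it was at 158.7, 55.46, 54.98, 55.80 and 231.8 CPM in Avp-rich nuclei, none near the 1136 CPM minimum of OT-like nuclei. Both sub-clusters were low in Gria2, second lowest in OT-like nuclei.

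**Figure D4:**
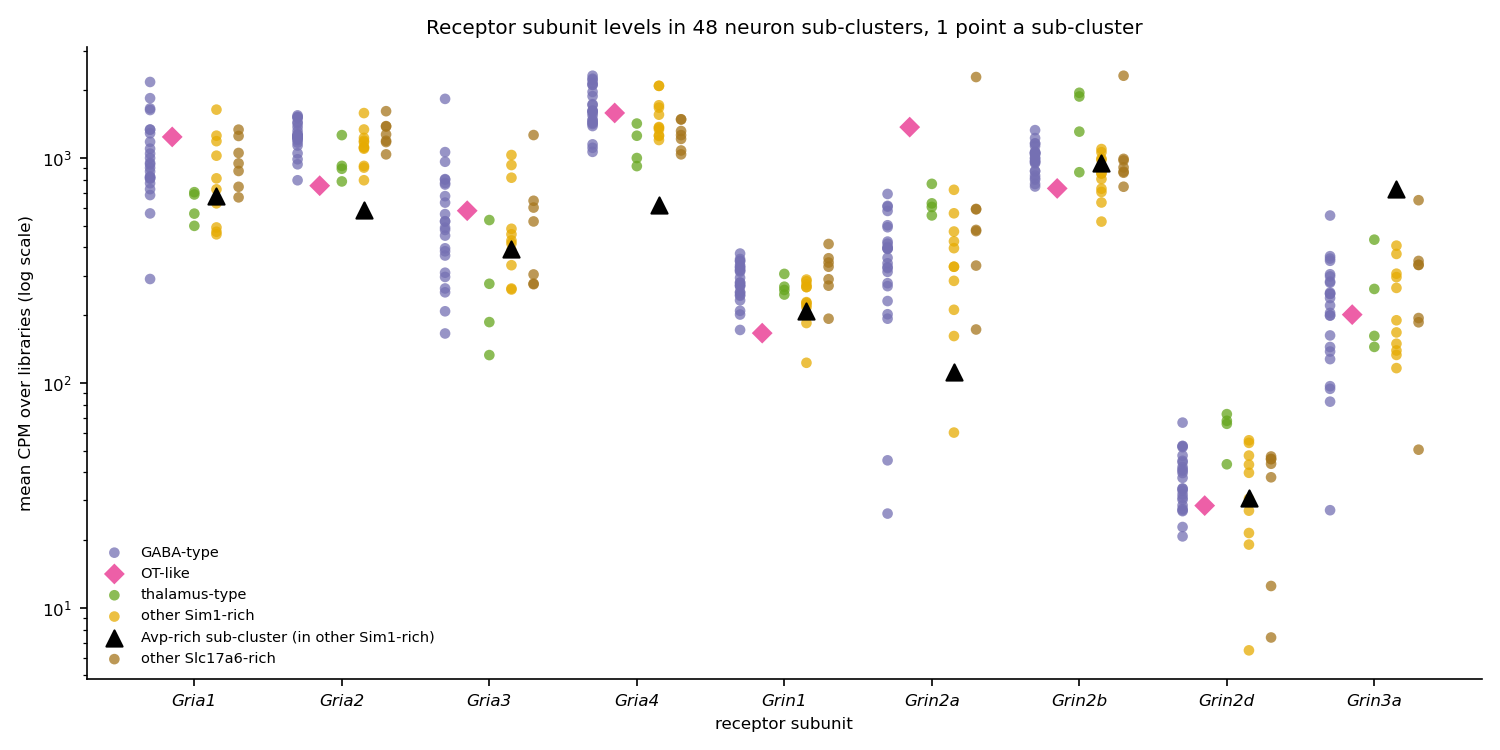
Mean level of each subunit (log axis, CPM) in 48 neuron sub-clusters, 1 point each, with the OT-like and Avp-rich sub-clusters marked. Grin2a spans 26.22 to 2291 CPM and Gria2 only 586.1 to 1615 CPM, and the Avp-rich point is lowest for Gria2 and Gria4 and highest for Grin3a.

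Across these 48 sub-clusters, which share libraries and depth, the subunits followed each other loosely. The highest Pearson correlation of log2(CPM + 10) between members was 0.56 for Gria2 with Grin1, then 0.49 for Grin1 with Grin2b, 0.45 for Gria1 with Grin2a and 0.42 for Grin2d with Grin3a. The lowest was -0.33 for Gria4 with Grin2b. Among 6650 genes with a mean of at least 20 CPM, the pattern most like Grin2b was that of Ndrg4 (0.80), followed by Arhgef2 (0.76) and Adgrb1 (0.74). Grin1 was most like Rapgefl1 (0.78), the sodium channel gene Scn8a (0.77) and Nsf (0.76), whose product binds GluA2.

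For Grin2d the most similar genes were Syt3 (0.77), Coro2a (0.74) and Atp5o (0.71), and for Gria1 they were Ccdc30 (0.73), Ulk4 (0.70) and Klhl3 (0.69). Gria2 was most like Dgkg (0.71), Nrp2 (0.68) and Tnik (0.68), Gria4 like Acbd6 (0.67), Bmper (0.63) and Polr3gl (0.63), and Grin2a like Slit3 (0.64) and Dgki (0.61). The nearest were weaker for the other two, with Zbtb43 (0.58), Ankrd16 (0.57) and Arntl2 (0.56) for Gria3, and Gm13883 (0.58), 9630013A20Rik (0.57) and Mtf1 (0.56) for Grin3a. These correlations are a description over 48 points.

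Prenatal VPA exposure, with 1 library an arm, allows no test. Each ratio has an exact (Clopper-Pearson) 95% interval that covers counting error only, and a gene is called when its log2 ratio passes 0.32 either way with the interval off 0. In GABA-type neurons no member was called, where 8.26% of genes at 10 CPM or more were called higher and 4.33% lower. In Slc17a6-rich neurons 2 members were (10.5% higher and 4.64% lower over all genes). Gria3 was 442.9 CPM in VPA and 344.6 in saline (log2 0.36, interval 0.32 to 0.40), and Grin2a was 451.4 and 565.7 CPM (log2 -0.33, interval -0.36 to -0.29).

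With equal weight for each sub-cluster neither passed that size. Grin2a was below 0 in 15 of 21 Slc17a6-rich sub-clusters, with the interval below 0 in 14. The 3 libraries of the second experiment, all VPA exposed, held Slc17a6-rich Grin2a at 510.4, 600.5 and 564.0 CPM, above the VPA library and on both sides of 565.7 CPM.

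In OT-like neurons Grin2a was the member called, at 1390 CPM in VPA and 1773 in saline (log2 -0.35, interval -0.45 to -0.25), beside 4.35% of genes lower and 5.21% higher. The saline library stood above all 4 VPA-exposed libraries, whose other values were 1294, 1270 and 1136 CPM, across experiments that differ in more than exposure.

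Gria2 was higher in VPA without passing that size. It was 1421 against 1189 CPM in GABA-type neurons (log2 0.26, interval 0.23 to 0.28) and 1181 against 971.9 CPM in Slc17a6-rich neurons (log2 0.28, interval 0.26 to 0.30). The ratio was above 0 in 19 of 19 GABA-type and 19 of 21 Slc17a6-rich sub-clusters, with the interval above 0 in 17 and 15. These sub-clusters come from the same 2 libraries and are not replicates. In OPC-like nuclei Gria2 was called, at 1569 against 1238 CPM (log2 0.34, interval 0.21 to 0.47), beside 5.38% of genes higher and 3.65% lower. The call was lost with predicted doublets kept, and the neuron marker sum in OPC-like nuclei was 2129 CPM in VPA and 1472 CPM in saline, whose part was not tested.

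In astrocyte-like nuclei 3 members were called in VPA, beside 10.1% of genes higher and 6.24% lower. Gria3 was 40.57 against 16.86 CPM (log2 1.27, interval 0.73 to 1.83), Gria4 122.6 against 78.01 CPM (log2 0.65, interval 0.38 to 0.92) and Grin3a 86.49 against 124.3 CPM (log2 -0.52, interval -0.79 to -0.26). The summed level of 8 neuron markers in astrocyte-like nuclei, none of them at 0, moved from 955 CPM in saline to 1582 CPM in VPA, and its part in the higher values was not tested. Of VPA astrocytes 1044 of 1129 fell in a cluster that held 196 of 680 saline ones. Within it Gria3 was 39.57 against 26.70 CPM (log2 0.57, interval across 0), Gria4 126.3 against 89.62 CPM (log2 0.49, interval 0.04 to 0.98) and Grin3a 82.19 against 97.25 CPM (log2 -0.24, interval -0.70 to 0.24). Within the cluster that held 471 of the saline and 60 of the VPA nuclei Gria3 was 57.44 against 14.10 CPM, while Gria4 (75.12 and 73.01 CPM) and Grin3a (132.6 and 131.4 CPM) had intervals across 0.

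Astrocyte Gria3 also differed between the experiments, a comparison made after its values were seen. It was at 16.86 and 40.57 CPM in the saline and VPA libraries of the first and at 172.6, 147.3 and 166.3 CPM in the hM3 control and CNO libraries of the second. Relative to the neurons of the same library this is 4.16% and 8.60% against 34.2%, 25.9% and 40.1%. The neuron marker sum in astrocytes was 955 and 1582 CPM against 1145, 1275 and 1602 CPM. Gria3 in neuron-like nuclei was 405.7 and 472.0 CPM against 504.2, 568.4 and 415.3 CPM, with overlap.

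Of the AMPA partner genes, Cacng4 was called lower in VPA in 4 of these 5 classes. It was 44.31 against 59.83 CPM in GABA-type, 63.98 against 93.02 in Slc17a6-rich, 67.16 against 95.21 in OT-like and 649.8 against 821.2 in OPC-like nuclei, with 41.91 against 45.87 CPM in astrocytes. Over the tested members of the AMPA auxiliary list, VPA called 1 higher and 5 lower of 18 in GABA-type (8.26% and 4.33% of all genes) and 1 and 3 of 17 in Slc17a6-rich neurons (10.5% and 4.64%). The counts were 1 and 3 of 17 in OT-like (5.21% and 4.35%), 3 and 4 of 12 in astrocyte-like (10.1% and 6.24%) and 1 and 3 of 14 in OPC-like nuclei (5.38% and 3.65%). In the second experiment Cacng4 in Slc17a6-rich neurons was 74.40 CPM in the hM3 control and 93.17 and 68.89 CPM with CNO.

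For neonatal CNO the edgeR test of 2 libraries against 1 called no member in any of 5 classes (9 tested, 8 in OPC-like nuclei), and it assumes that the lone control varies like the CNO libraries. In GABA-type neurons it called 0 of 17338 genes (0.0%), where 271 had an unadjusted p under 0.05, and DESeq2 called 0 with 80. In OT-like neurons it called 0 of 8061 genes, with 143 at an unadjusted p under 0.05, and DESeq2 called 0 with 14. Of the members, Gria4 in astrocyte-like nuclei and Grin2b in OPC-like nuclei had an unadjusted p under 0.05. It called 0.137% in Slc17a6-rich neurons, 0.0% in OT-like neurons, 0.0362% in astrocyte-like and 0.285% in OPC-like nuclei. An exact permutation test of 1 gene over these 3 libraries, which was not the test used, could give no p below 0.333. In counts simulated for GABA-type neurons the fit found 65.2% of 4-fold and 9% of 2-fold changes, so smaller changes were mostly out of reach.

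Read by size, with both CNO libraries past a log2 ratio of 0.32 in one direction and both intervals off 0, no member passed in GABA-type (5.45% of genes higher, 0.426% lower), Slc17a6-rich (7.03% and 3.33%), OT-like (1.02% and 0.869%) or OPC-like nuclei (2.03% and 1.05%). In astrocyte-like nuclei Gria4 and Grin2a did, beside 6.5% of genes higher and 1.74% lower. Gria4 was 53.39 CPM in the hM3 control and 73.07 and 105.0 CPM with CNO, and Grin2a was 10.51, 18.69 and 17.82 CPM, on 33 to 66 UMIs a library. Relative to neurons, both stood near the level of the median neuron marker in astrocytes. The neuron marker sum there was 1145 CPM in the hM3 control and 1275 and 1602 CPM with CNO, with the sum of 8 oligodendrocyte markers at 311.7, 892.1 and 660.8 CPM. The part of either in these values was not tested, and oligodendrocyte-like nuclei held Gria4 at 415.2 to 553.0 CPM. Both calls were lost with predicted doublets kept. In the astrocyte cluster that held 846 of 1032 control nuclei the log2 ratio of Gria4 was 0.35 (interval across 0) and 1.06 in the 2 CNO libraries and that of Grin2a 0.66 and -0.22 (both intervals across 0). In the cluster that held most nuclei of CNO library 2 they were 0.50 and 0.29 for Gria4 (both intervals across 0) and 1.52 and 0.72 for Grin2a (the second interval across 0).

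Gria1 parted the CNO libraries. In GABA-type neurons it was 1259 CPM in the hM3 control, 1259 in CNO library 1 and 821.3 in CNO library 2 (log2 -0.62 for the latter, interval -0.67 to -0.56). In Slc17a6-rich neurons the log2 ratio was 0.03 in CNO library 1 and -0.46 in CNO library 2, in OT-like neurons 0.19 and -0.41, and in astrocyte-like nuclei -0.30 and -0.71. CNO library 2 was lower in every one of these classes, and in OPC-like nuclei it was not (0.08 and 0.13). The lower value in CNO library 2 was present in 15 of 17 GABA-type and 18 of 21 Slc17a6-rich sub-clusters, with the interval below 0 in 12 and 9. Among astrocytes, 1437 of 1582 in this library fell in a cluster that held 134 of the control's 1032, and the log2 ratio within that cluster was -0.42 and within the control's main cluster -0.41. In that main cluster CNO library 1 was at -0.31 (interval -0.37 to -0.25), and in the other at -0.08 with the interval across 0. With sub-clusters weighted equally the median log2 ratio in CNO library 2 was -0.36 in GABA-type and -0.24 in Slc17a6-rich neurons, smaller than for the pooled nuclei. The sub-cluster with the highest Gria1 held 16 of 433 GABA-type nuclei in this library and 196 of 1530 in the control, and its part in the pooled value was not tested. GABA-type nuclei of CNO library 2 had a median of 6886 UMIs against 14442.5 in the control and 14552.5 in CNO library 1. The part of depth in the Gria1 value was not tested.

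Gria4 was lower in CNO library 1, with log2 ratios of -0.18 in GABA-type and -0.30 in Slc17a6-rich neurons. It was below 0 in 21 of 21 and 17 of 17 sub-clusters, with the interval below 0 in 13 and 11. In CNO library 2 the ratio was 0.18 in GABA-type (interval 0.14 to 0.22) and -0.20 in Slc17a6-rich neurons. There it was below 0 in 10 of 17 GABA-type sub-clusters, with the interval below 0 in 4 and above 0 in 4, and in 14 of 21 Slc17a6-rich ones. These sub-clusters share the same control library.

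Some other members differed between the CNO libraries. In astrocyte-like nuclei Grin3a was 116.2 CPM in the hM3 control, 180.7 in CNO library 1 and 98.83 in CNO library 2 (log2 0.64 and -0.23). In OT-like neurons Gria2 (log2 0.43) and Grin3a (0.45) were higher in CNO library 1, which holds 17 such nuclei, and were at 0.10 and 0.07 in CNO library 2. In OPC-like nuclei Grin2b was 23.31 CPM in the hM3 control, 41.10 in CNO library 1 and 135.2 in CNO library 2, on 14, 18 and 37 UMIs (log2 0.82, interval -0.27 to 1.94, and 2.54, interval 1.61 to 3.54, edgeR adjusted p = 0.109), where the median of all genes lay at 0.12 and 0.13 on the log2 scale. In the same 3 libraries the oligodendrocyte marker sum in OPC-like nuclei was 166.5, 684.9 and 752.6 CPM and the neuron marker sum 1728, 2235 and 2265 CPM, and their part in the Grin2b values was not tested. In Slc17a6-rich neurons Grin2b was higher in both, at 1065 CPM in the control and 1310 and 1274 CPM with CNO (log2 0.30 and 0.26), under that size in both. Within sub-clusters it went the other way in most, below 0 in 12 of 17 for CNO library 1 and 13 of 21 for CNO library 2, with medians of -0.05 and -0.12.

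**Figure D5:**
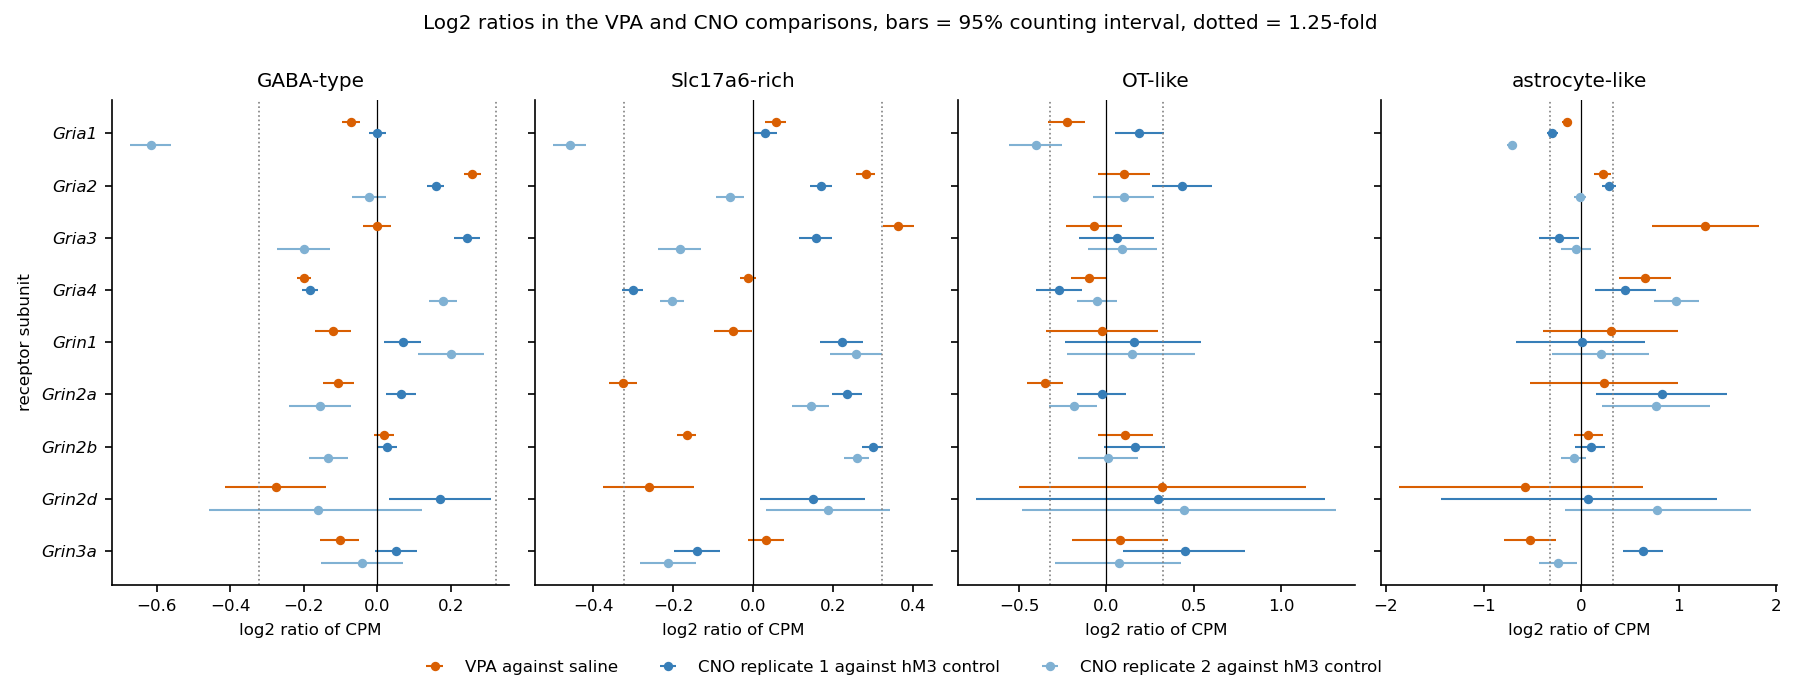
Log2 ratio of CPM (horizontal axis) for each subunit in VPA against saline and in each CNO library against the hM3 control, in 4 classes, with 95% counting intervals as bars and dotted lines at 0.32 either way. Most neuron values lie inside the dotted lines, Gria1 in CNO library 2 lies at -0.62 in GABA-type neurons, and the widest intervals belong to OT-like and glial values with few UMIs.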

How the data were processed

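UMI counts per gene and nucleus were deposited by the authors as filtered 10x matrices, 1 a library, made with Cell Ranger 7.0.1 on mm10, per the submitters' processing notes. Whether introns or strand were used is not given in the sources used here, so Grin1 reads cannot be parted from an overlapping antisense gene. From these deposited counts, nuclei under 1000 UMIs or over 5% mitochondrial UMIs were dropped, and predicted doublets were removed (scanpy 1.11.5, at 0.8% per 1000 nuclei). Libraries shared 4 to 23 barcodes (at most 0.374% of the smaller). Nuclei were clustered with Leiden (leidenalg 0.10.2) on 2000 variable genes without the receptor and partner genes, and named from marker lists. Thresholds for neuron groups were set after clusters were seen, and the names are rebuilt, not the authors'.

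UMIs were summed per library and class. The tests were edgeR 4.0.16 (quasi-likelihood, TMM factors, filterByExpr), with DESeq2 1.42.0 as an alternative. The scripts were tested on simulated data. The VPA and CNO ratios used plain library totals. Groups follow the labels, and each library pools mice. Alternatives were other scaling, filters, doublets kept, 2000 UMIs, no block, another fold, pseudocount 1 in place of 10 CPM, and each library left out. Every member is named, with at most 6 called partner genes per class comparison by size of change and the 3 most similar genes per member, of which 1 is not reported here. Sequences were not used here. The members, lists and tests were chosen with earlier results of these data known.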

Additional observations from a re-analysis of the deposited data

Results flagged for a closer look

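In groups of 5 libraries, a value far from the other 4 for its range was looked for in 99 combinations of a subunit with a class or neuron group, and 7 were found, where chance gives about 1 in 20. Of these, 4 were in CNO library 2. Gria1 in GABA-type neurons was 821.3 CPM there, against 1158 CPM for the nearest library (2856 UMIs). In committed OPC-like nuclei of the same library Gria1 was 233.5 CPM (22 UMIs), the nearest being 51.21 CPM, and Grin1 was 106.1 CPM (10 UMIs), the nearest being 40.96 CPM. Grin2b in its OPC-like nuclei was 135.2 CPM (37 UMIs), the nearest being 41.1 CPM. CNO library 2 has the lowest median of UMIs per nucleus.

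The other 3 lay in 3 libraries. Gria2 in OT-like neurons was 926.0 CPM in CNO library 1 (396 UMIs from 17 nuclei), the nearest library being 736.3 CPM. Grin1 in vascular nuclei was 141.7 CPM in VPA (25 UMIs), the nearest being 55.45 CPM. Grin2d in oligodendrocyte-like nuclei had 0 UMIs in saline, the nearest library being 4.326 CPM.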

How the results depend on the processing

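Without the library block the members called in GABA-type against Slc17a6-rich neurons were 2 in place of 8, and the genes called overall 1466 in place of 4241. In the thalamus-type comparison the latter were 4016 in place of 6662. For VPA the 2 calls in Slc17a6-rich neurons were 0 at 1.5-fold and 0 with equal weight for each sub-cluster, the call in OT-like neurons was 0 at 1.5-fold, and the call in OPC-like nuclei was 0 at 1.5-fold, 0 with doublets kept and 2 at 2000 UMIs. For CNO the 2 astrocyte calls were 0 with doublets kept, 1 at 2000 UMIs and 1 at 1.5-fold. With 1 CNO library left out the calls ran from 0 to 1 in GABA-type, Slc17a6-rich and OPC-like nuclei and from 1 to 2 in OT-like neurons, where none was called with both. The genes called overall in the CNO test moved without the filter on low counts from 24 to 116 in Slc17a6-rich, from 0 to 4 in GABA-type, from 0 to 2 in OT-like and from 5 to 8 in astrocyte-like nuclei, by DESeq2 from 21 to 2 in OPC-like and from 5 to 0 in astrocyte-like nuclei, and at 2000 UMIs from 5 to 1 in astrocyte-like nuclei. For single members, Gria2 in thalamus-type neurons turned from 0.01 to -0.22 (log2) by plain library totals, a setting chosen after seeing the data, as was the CNO fit without a filter. Without the filter on low counts, Gria2 in astrocytes was called lower (edgeR adjusted p = 0.0207) and Gria3 in OPCs higher (0.0355). Grin1 in GABA-type neurons was called without CNO library 1 (0.0271). The cause of these changes was not tested. Treated and control libraries could not be paired because the only replicate numbers belong to the 2 CNO libraries. The class and neuron group tests were paired within a library through the block. Counting error limits values that rest on few UMIs, such as the 10 to 37 UMIs behind 3 of the OPC-like and committed OPC-like values above.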
